A study of Mus musculus with 12 samples.

Results

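Nodal and BMP signalling genes were followed in wild-type (WT) mouse embryonic stem cells (ESCs) and in ESCs that lack CIDEA, a protein of the lipid droplet surface. The members were chosen by name for their place in the pathways: the ligand Nodal, its co-receptor Tdgf1, the transducer Foxh1, the antagonists Lefty1 and Lefty2, the inhibitory Smad7, the ligand Bmp4 and the BMP targets Id1, Id2 and Id3. They are 10 of the 35580 genes to which the deposited transcript values were summed, and all 10 were among the 17424 genes that passed the filter on low counts. Nodal lies on a stretch of chromosome 10 whose genes were known from earlier results of these data to be lower in the KO cells. The question was whether the genes that respond to Nodal signalling were lower too.

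Nodal is a secreted ligand of the TGF-beta family. It binds activin receptors together with the co-receptor CRIPTO, the product of Tdgf1, and the activated SMAD2 and SMAD3 proteins bind DNA with SMAD4 and FOXH1. Among the genes switched on in this way are Nodal itself and its own inhibitors Lefty1 and Lefty2, so that the pathway holds itself in check. BMP4 acts through other receptors and through SMAD1 and SMAD5, and the ID proteins, which bind basic helix-loop-helix transcription factors and keep them off DNA, are its best-known targets. In mouse ESCs grown with serum and LIF, BMP signalling and the ID proteins help to hold back differentiation, while Nodal signalling is active in pluripotent cells of the embryo before and after implantation.

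WT cells were the parental R1 line, an established mouse ESC line. KO cells were the single clone 19.7, made from R1 by CRISPR-Cas9 deletion of the Cidea locus, so an effect of losing Cidea and any other difference between this clone and its parent cannot be told apart. At 0 h both genotypes were ESCs in 10% serum with LIF, the cytokine that maintains the undifferentiated state. At 24 h and 48 h they were spheroids grown with growth factor-reduced Matrigel, a basement membrane gel, in 15% serum without LIF, so time, medium and culture form changed together. The labels describe the spheroids as embedded in the gel, while the study's methods describe, for molecular experiments, cells seeded on top of a Matrigel coat. Each of the 6 groups had 2 libraries, 12 in all, and no label says whether replicates were separate cultures, so p-values measure only the spread between these libraries.

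Depth was 29.0 to 38.5 M estimated counts per library. Cidea, the deleted gene, had 89 and 67 counts in WT libraries at 0 h, 117 and 46 at 24 h, 20 and 21 at 48 h, and 0 in all 6 KO libraries. The 7 pluripotent cell markers summed to 3790 to 6080 TPM (a level scaled for transcript length and depth). Markers of primitive endoderm summed to at most 12 TPM, of mesendoderm to 10.7, of trophectoderm to 4.14 and of fibroblasts to 24.8. KO replicate 1 at 24 h stood apart: at equal depth 15473 genes were detected in it, against 17635 to 19672 in the other 11 libraries. The calls of members between the genotypes at 24 h are given with and without it. Other results that rest on it, such as changes over time in KO cells, are given without it only where stated. Without KO replicate 2 of 24 h it is the lone KO library of that time, and calls between the genotypes at 24 h then rose over all genes. In bulk RNA, fewer cells that express a gene and less RNA per cell cannot be told apart.

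Nodal (GRCm38 chr10:61417972-61425338, plus strand) was lower in KO cells. In normalised CPM (counts scaled for depth and composition to a common library size), it had 64.9 and 56.8 in the WT libraries at 0 h, 63.6 and 64.7 at 24 h, and 58.0 and 55.4 at 48 h. The KO libraries had 35.2 and 36.2, then 41.4 and 45.9, then 28.1 and 41.1. All 6 KO libraries lay below all 6 WT libraries, and within each genotype the 3 times differed little. Over all times the log2 fold change of KO against WT was -0.68 ± 0.08 (SE) (edgeR quasi-likelihood, adjusted p = 2.2e-05), which is 0.624 of the WT level. At single times it was -0.77 ± 0.14 at 0 h (adjusted p = 0.0058), -0.56 ± 0.14 at 24 h (adjusted p = 0.053) and -0.72 ± 0.14 at 48 h (adjusted p = 0.019), so that 0 h and 48 h passed the threshold of 0.05 and 24 h did not. With 2 libraries per group the calls at single times rested on each library: the adjusted p at 0 h was 0.091 without WT replicate 1, 0.079 without KO replicate 1 and 0.063 without KO replicate 2. At 48 h it was 0.15 and 0.082 without WT replicates 1 and 2, and 0.29 without KO replicate 1, where the log2 value was -0.47. At 24 h the value was -0.48 (adjusted p = 0.19) without KO replicate 1 and -0.63 (adjusted p = 0.01) without KO replicate 2, and the call was also gained without KO replicate 1 or 2 of 48 h (adjusted p = 0.013 for both). The 24 h value of Nodal passed with DESeq2 (adjusted p = 0.028), without the filter on low counts (0.0011) and with a minimum of 10 counts (0.025), and stood at 0.05, just inside, with the size factors of DESeq2. The difference over all times kept its call under every alternative setting and without any single library.

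**Figure D1:**
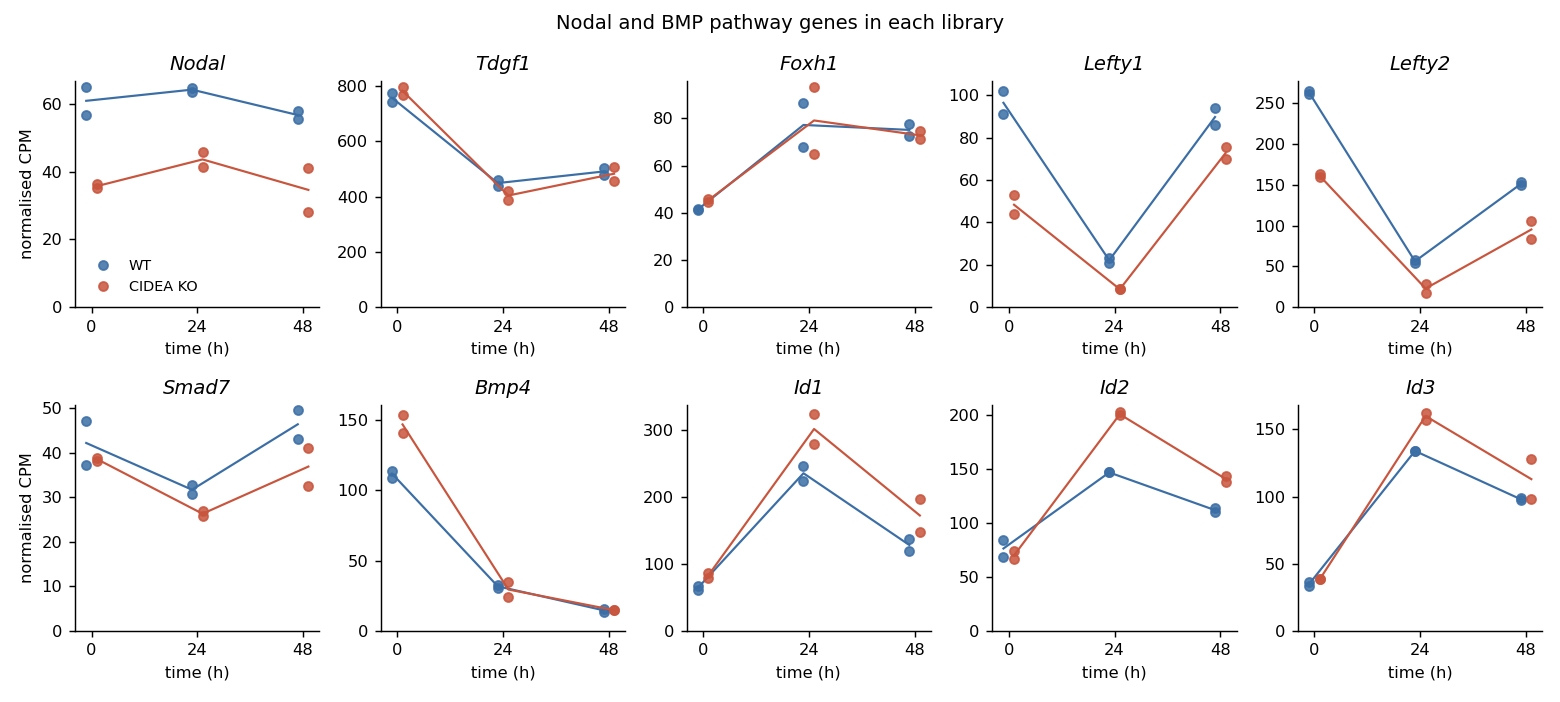
Normalised CPM of each of the 10 genes (vertical axis, from 0) against time in h (horizontal axis), with 1 point per library, blue for WT and red for CIDEA KO, shifted slightly sideways for legibility, and lines through the means of 2 libraries. The KO points of Nodal lie between 28.1 and 45.9 and the WT points between 55.4 and 64.9. Lefty1 and Lefty2 dip at 24 h in both genotypes while Id1, Id2 and Id3 peak there.

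The genes around Nodal were lower as well. Of 65 other tested genes whose start lay within 5 Mb of the start of Nodal, 43 were called lower in KO cells over all times and 0 higher, with a median log2 fold change of -0.70, against a median of 0.00 over all genes. Within 1 Mb, 11 of 18 were called lower and 0 higher, with a median of -0.74, and all 18 had values below 0. The value of Nodal, -0.68, thus lay close to the median of its neighbours. The nearest genes before it were Sgpl1, an enzyme that degrades sphingosine phosphate, with -0.55 (adjusted p = 3e-05), Adamts14, a secreted metalloprotease, with -0.90 (adjusted p = 4e-04), and Pald1 with -0.72 (adjusted p = 2.2e-07). After it came Eif4ebp2, a translation repressor, with -0.67 (adjusted p = 1.1e-08), Lrrc20 with -0.46 (adjusted p = 0.16) and Ppa1, a pyrophosphatase, with -0.73 (adjusted p = 6.3e-09), so 5 of these 6 were called lower (Adamts14 not with limma on log2(TPM + 1), adjusted p = 0.061).

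Along the chromosome the lower genes filled a block of about 29.5 Mb around Nodal. From Rsph4a, whose start lies at -27.51 Mb from that of Nodal, to Dnajc12, at 1.96 Mb, 92 of 168 tested genes were called lower and 0 higher, with a median log2 fold change of -0.65. These ends were picked after the values were seen. On the scale of the chromosome, from 30 Mb to 70 Mb, 93 of 193 tested genes were called lower and 3 higher, with a median log2 fold change of -0.62. The 12 genes of this range before Rsph4a had a median of -0.11, with 1 called lower and 1 higher, and the 13 after Dnajc12 a median of 0.00, with 0 called lower and 2 higher. In steps of 10 Mb the medians were -0.54, -0.66, -0.55 and -0.69 within the range, and outside it they ran from -0.06 to 0.06, apart from the last step of 7 genes with 0.39. No other member sat in such a block: the genes within 5 Mb of each of the other 9 had medians from -0.06 (Lefty1 and Lefty2, which are neighbours on chromosome 1) to 0.03 (Smad7 and Id1). The cause of this block was not tested.

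**Figure D2:**
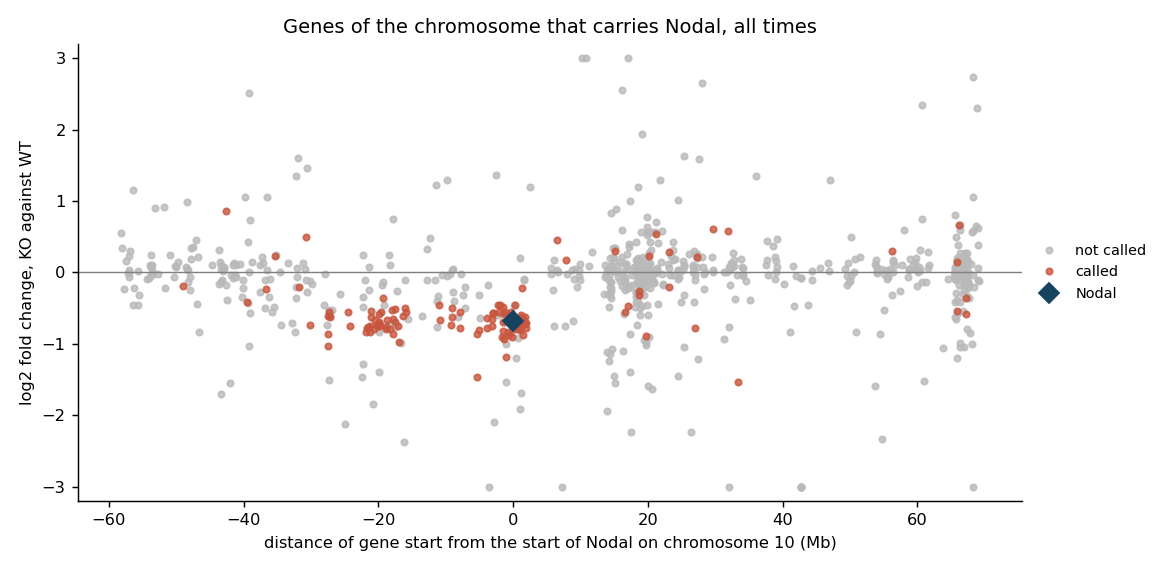
Log2 fold change of KO against WT over all times (vertical axis) for the 830 tested genes of chromosome 10, against the distance of each gene's start from the start of Nodal in Mb (horizontal axis). Red points were called at an adjusted p below 0.05, grey points were not, the diamond is Nodal, and 11 genes beyond 3 log2 units are drawn at the edge. Nodal, at -0.68, sits among red points near the same value, near the right end of a block whose red points all lie below 0.

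Over all genes, 5.03% were called between the genotypes over all times, and 5 of the 10 members were: Nodal, Lefty1 and Lefty2 were lower and Id1 and Id2 higher in KO cells. At 0 h 1.26% of all genes and 2 members were called (Nodal and Lefty1, both lower). At 24 h it was 1.46% of all genes and 3 members (Lefty1 and Lefty2 lower, Id2 higher), and at 48 h 0.671% of all genes and 1 member (Nodal, lower). The median log2 fold change of the 10 members over all times was 0.00, the same as that of all genes, because members differed in both directions.

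**Figure D3:**
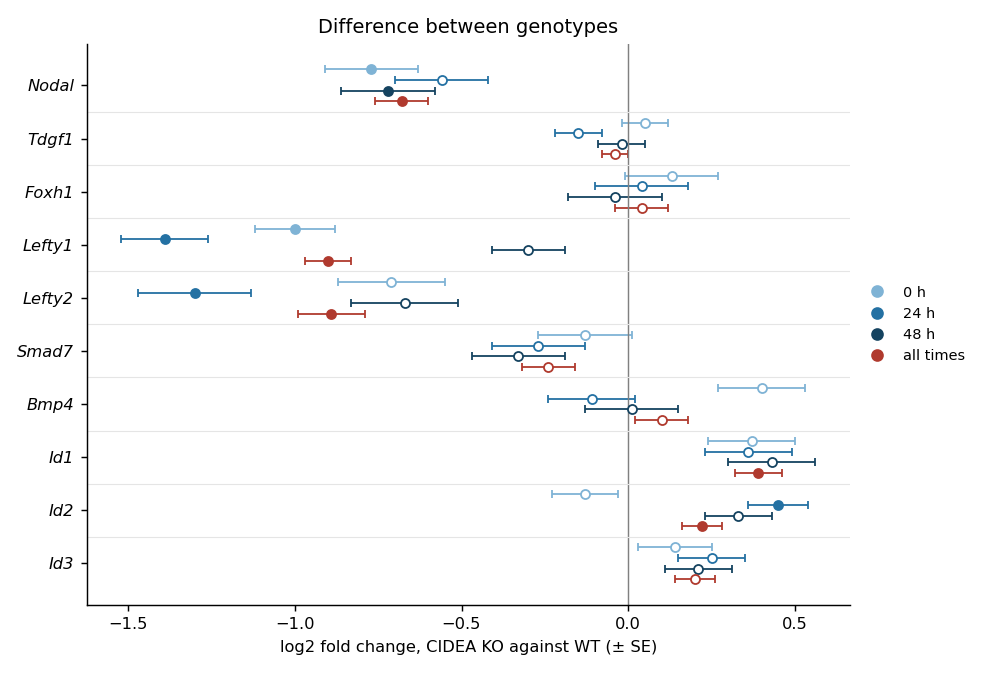
Log2 fold change of CIDEA KO against WT (horizontal axis) for each of the 10 genes (vertical axis), at 0 h, 24 h, 48 h and over all times, with bars of 1 SE from the edgeR fit. Filled points passed an adjusted p of 0.05 and open points did not. Lefty1 at 24 h (-1.39) and Lefty2 at 24 h (-1.30) lie farthest from 0, and Tdgf1 and Foxh1 lie within 0.15 of it.

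The Lefty genes, which encode secreted inhibitors that bind Nodal and its co-receptor, were lower in KO cells as well. Lefty1 (chr1:180935022-180938400) had 102 and 91.1 CPM in WT cells at 0 h against 52.7 and 43.9 in KO cells. At 24 h it had 23.4 and 20.8 CPM against 8.49 and 8.38, and at 48 h 93.8 and 85.7 against 69.8 and 75.6. WT and KO libraries did not overlap at any time, but the gap was widest in proportion at 24 h and smallest at 48 h. KO against WT differed by -1.0 ± 0.12 on the log2 scale at 0 h (adjusted p = 1e-04) and -1.39 ± 0.13 at 24 h (adjusted p = 9.5e-06). At 48 h it was -0.30 ± 0.11 (adjusted p = 0.42), which did not pass, and over all times -0.90 ± 0.07 (adjusted p = 1.2e-07). Without KO replicate 1 of 24 h, the 24 h value was -1.40 (adjusted p = 3.7e-06). The 0 h call was lost when log2(TPM + 1) was tested with limma (-0.88, adjusted p = 0.084), and the 24 h call when only the groups compared were fitted (adjusted p = 0.062).

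Lefty2 (chr1:180893108-180899103) had 262 and 265 CPM in WT cells at 0 h against 163 and 160 in KO cells. The values were 57.9 and 54.5 against 27.8 and 17.7 at 24 h, and at 48 h 153 and 150 against 106 and 84.0. Here too every KO library lay below both WT libraries of its time. Over all times the difference on the log2 scale was -0.89 ± 0.10 (adjusted p = 0.00025). By time it was -0.71 ± 0.16 at 0 h (adjusted p = 0.079), -1.30 ± 0.17 at 24 h (adjusted p = 0.0034) and -0.67 ± 0.16 at 48 h (adjusted p = 0.14), so only 24 h passed. Lefty2 at 0 h and 48 h passed with DESeq2 (adjusted p = 0.0003 and 0.0013), without the filter on low counts (1.6e-10 and 3e-09), with only the groups compared (0.002 for both) and with the replicate block (0.011 and 0.027). The calls also depended on the KO libraries of 24 h. Without KO replicate 1 of 24 h the values were -0.70 (adjusted p = 8.6e-06), -1.67 (adjusted p = 8.8e-10) and -0.67 (adjusted p = 2.6e-05). Without KO replicate 2 of 24 h, 0 h and 48 h were called too (adjusted p = 8.1e-06 and 3e-05), and 0 h also without KO replicate 1 of 48 h (adjusted p = 0.047). Without WT replicate 1 of 24 h, the 24 h call was lost (-1.26, adjusted p = 0.074).

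The level of Lefty2 also depended on which transcripts were counted. A short transcript of Lefty2 annotated as a retained intron held 61.9% of its TPM in KO replicate 1 at 24 h, against 0.0% to 16.8% in the other 11 libraries. In TPM that library had 38.8, above the WT libraries with 36.1 and 38.5, while its replicate had 13.4. Over protein-coding transcripts alone, the KO libraries of 24 h had 14.8 and 11.2 TPM and the WT libraries 36.1 and 33.5, which do not overlap. With transcript length taken into account, the difference of Lefty2 over all times was -0.61 (adjusted p = 0.25) with length offsets in edgeR and -0.64 (adjusted p = 0.19) with limma on log2(TPM + 1), and the 24 h values were -0.56 (adjusted p = 0.63) and -0.68 (adjusted p = 0.48).

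Lefty1 and Lefty2 are close relatives: 25.7% of the distinct 31-base words in the transcripts of Lefty1 also occur in another gene, 443 of them in Lefty2. The division of reads between them is therefore uncertain, and their sum in counts or CPM does not depend on it. A sum in TPM, as in the ratios below, can depend on it. TPM is scaled for length, and the main transcripts have 1620 bases for Lefty1 and 2473 for Lefty2. The summed CPM was 363 and 356 in WT cells at 0 h against 216 and 204 in KO cells. At 24 h it was 81.3 and 75.3 against 36.3 and 26.1, and at 48 h 247 and 235 against 176 and 160, so the sum was lower in both KO libraries at each time. In TPM, the ratio of the Lefty sum to Nodal was 5.73 and 6.49 in WT cells at 0 h and 6.28 and 5.97 in KO cells. At 48 h it was 4.92 and 4.90 in WT and 7.29 and 4.75 in KO cells, and at 24 h 1.34 and 1.23 in WT and 1.53 and 0.646 in KO cells. At each time the genotypes overlapped, at 24 h through the KO library in which the retained intron held most of the TPM of Lefty2, and without that library the KO value was 0.646. Over protein-coding transcripts alone the 24 h ratios were 1.21 and 1.11 in WT and 0.753 and 0.55 in KO cells, which do not overlap. On that scale they were 5.39 and 5.93 against 5.73 and 5.19 at 0 h and 4.18 and 4.14 against 6.23 and 4.01 at 48 h, which do. In both genotypes the ratios were lowest at 24 h on either scale.

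Tdgf1, which encodes the co-receptor CRIPTO, was not called between the genotypes at any time. It had 742 and 775 CPM in WT cells at 0 h against 768 and 798 in KO cells, 440 and 459 against 421 and 387 at 24 h, and 504 and 478 against 509 and 458 at 48 h. The libraries overlapped at 0 h and 48 h, and both KO libraries lay lower at 24 h. Averaged over the times, the log2 fold change was -0.04 ± 0.04 (adjusted p = 0.67), and by time it was 0.05, -0.15 and -0.02 (adjusted p = 0.95, 0.36 and 1). A pseudogene, Tdgf1-ps1, shares 330 of these words with Tdgf1. Tdgf1-ps1 and Tdgf1-ps2 together had counts equal to 5.62% to 10.8% of those of Tdgf1.

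The 250 bases before the start of Tdgf1 and of Nodal are from RefSeq (GRCm38.p6). They are shown because this window of Tdgf1 holds matches to the patterns searched for FOXH1 and SMAD proteins and that of Nodal does not. Capitals mark the FOXH1 core AATNNACA and the SMAD box CAGAC, searched on both strands together with the BMP response box GGCGCC. Each sequence is written 5′ to 3′ on the strand of its gene, Tdgf1 at chr9:110946159-110946408 (minus strand) and Nodal at chr10:61417722-61417971 (plus strand).
Tdgf1: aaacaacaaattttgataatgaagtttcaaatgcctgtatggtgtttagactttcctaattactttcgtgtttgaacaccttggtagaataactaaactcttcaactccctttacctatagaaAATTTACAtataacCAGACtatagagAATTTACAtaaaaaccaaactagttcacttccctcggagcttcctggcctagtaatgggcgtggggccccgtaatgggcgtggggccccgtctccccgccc
Nodal: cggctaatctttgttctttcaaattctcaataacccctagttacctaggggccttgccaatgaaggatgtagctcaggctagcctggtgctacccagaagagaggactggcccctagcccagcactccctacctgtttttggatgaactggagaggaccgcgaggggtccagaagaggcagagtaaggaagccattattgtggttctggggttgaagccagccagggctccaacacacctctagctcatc
Tdgf1 holds 2 copies of the FOXH1 core, which start 127 and 101 bases before the gene, with 1 SMAD box between them at 113 bases. Of 27025 RefSeq promoters cut to the same length, 11.1% hold the FOXH1 core on either strand and 42.1% the SMAD box. RefSeq promoters were matched for 5 members, Nodal, Tdgf1, Bmp4, Id2 and Id3, and of these Nodal, Bmp4, Id2 and Id3 hold no FOXH1 core and Nodal, Bmp4 and Id2 no SMAD box. In the FOXH1 core N stands for any base, and both copies of Tdgf1 read AATTTACA. Sites outside these 250 bases were not searched. The match is to letters only, and none of these windows was measured for binding.

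Foxh1, the forkhead factor that brings SMAD2 and SMAD3 to DNA, was not called between the genotypes at any time. It had 41.7 and 41.0 CPM in WT cells at 0 h against 45.9 and 44.7 in KO cells, 86.7 and 67.8 against 93.2 and 65.0 at 24 h, and 77.7 and 72.4 against 71.1 and 74.5 at 48 h. The libraries of the genotypes overlapped at 24 h and 48 h, and the KO libraries lay slightly above at 0 h. The log2 fold change over all times was 0.04 ± 0.08 (adjusted p = 0.89), and it changed sign to -0.05 (adjusted p = 0.8) without KO replicate 1 of 24 h and to -0.01 without WT replicate 2 of 24 h.

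Smad7, an inhibitory SMAD that both TGF-beta and BMP signalling switch on, had 47.2 and 37.3 CPM in WT cells at 0 h against 38.2 and 38.9 in KO cells. The 24 h libraries had 32.7 and 30.8 against 26.9 and 25.7, and at 48 h 49.6 and 43.1 against 32.6 and 41.1. The KO libraries lay below the WT libraries at 24 h and 48 h and between them at 0 h. Its log2 fold change over all times was -0.24 ± 0.08 (adjusted p = 0.10), which did not pass. It passed without WT replicate 2 of 0 h (-0.30, adjusted p = 0.047) and without the filter on low counts (-0.25, adjusted p = 0.048), and at 0 h the sign of the difference turned without WT replicate 1 (0.06) and in fits that take transcript length into account (0.24 and 0.27).

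Bmp4, the BMP ligand of the list, had 114 and 109 CPM in WT cells at 0 h against 141 and 154 in KO cells. At 24 h it had 32.6 and 30.8 against 24.4 and 34.4, and at 48 h 13.7 and 15.4 against 14.6 and 14.8. Both KO libraries were higher at 0 h, and the genotypes overlapped at the later times. The log2 fold change at 0 h was 0.40 ± 0.13 (adjusted p = 0.19), which did not pass, and over all times 0.10 ± 0.08 (adjusted p = 0.58). The 0 h value passed when either KO library of 24 h was left out (adjusted p = 0.017 without replicate 1 and 0.022 without replicate 2), and the 24 h value turned from -0.11 to 0.12 without KO replicate 1.

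Id1, Id2 and Id3, which are targets of BMP signalling, tended the other way from the Lefty genes. Further BMP targets on the lists went in both directions, and none was called. Over all times the log2 fold change was -0.66 ± 0.26 for Smad6 (adjusted p = 0.17), -0.22 ± 0.52 for Msx1 (0.91) and -0.05 ± 0.13 for Id4 (0.92). It was 0.16 ± 0.14 for Bambi (0.65) and 0.86 ± 0.31 for Msx2 (0.13). Of 9 tested BMP targets 2 were called higher, Id1 and Id2, and 0 lower, beside 5.03% of all genes. Id1 had 67.1 and 60.3 CPM in WT cells at 0 h against 86.9 and 78.3 in KO cells, 246 and 223 against 279 and 324 at 24 h, and 119 and 137 against 147 and 197 at 48 h. Every KO library lay above both WT libraries of its time. Over all times Id1 was higher by 0.39 ± 0.07 on the log2 scale (adjusted p = 0.0074), with similar values of 0.37, 0.36 and 0.43 by time that did not pass alone (adjusted p = 0.29, 0.23 and 0.24). The 48 h value passed without KO replicate 1 (0.62, adjusted p = 0.014), and the call over all times was lost with limma on log2(TPM + 1) (adjusted p = 0.075).

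Id2 had 68.2 and 84.6 CPM in WT cells at 0 h against 73.9 and 66.2 in KO cells, and these overlap. At 24 h it had 147 in both WT libraries against 200 and 203 in KO cells, and at 48 h 114 and 110 against 138 and 144, so that the KO spheroids lay above the WT spheroids at both times. The log2 fold change was -0.13 ± 0.10 at 0 h (adjusted p = 0.78), 0.45 ± 0.09 at 24 h (adjusted p = 0.017) and 0.33 ± 0.10 at 48 h (adjusted p = 0.16). The 24 h call was kept without KO replicate 1 (0.46, adjusted p = 0.025) and lost without WT replicate 1 (adjusted p = 0.20) or WT replicate 2 (adjusted p = 0.11). Over all times Id2 was higher by 0.22 ± 0.06 (adjusted p = 0.023), a call that 6 of 12 left-out libraries ended, with adjusted p = 0.077 without WT replicate 1 of 0 h, 0.065 and 0.052 without WT replicates 1 and 2 of 24 h, 0.076 without WT replicate 2 of 48 h, 0.084 without KO replicate 1 of 0 h and 0.067 without KO replicate 2 of 48 h. At 0 h the sign turned (0.04) without WT replicate 2.

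Id3 had 36.4 and 33.3 CPM in WT cells at 0 h against 38.3 and 38.4 in KO cells, 134 in both WT libraries at 24 h against 157 and 162, and 97.3 and 98.7 at 48 h against 98.2 and 128. The KO libraries were higher at 0 h and 24 h and overlapped with WT at 48 h. The log2 fold change over all times was 0.20 ± 0.06 (adjusted p = 0.067), just outside the threshold. It passed without KO replicate 1 of 24 h (adjusted p = 0.041), KO replicate 2 of 24 h (adjusted p = 0.04) or KO replicate 1 of 48 h (adjusted p = 0.0095).

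A stretch of 30 bases from the RefSeq promoter window of Id2 is shown because it holds the only BMP response box, in capitals, found in the 5 matched windows. It lies at chr12:25096306-25096335 on the minus strand of GRCm38.p6 and is written 5′ to 3′.
Id2: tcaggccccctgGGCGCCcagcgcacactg
The box GGCGCC, which reads the same on both strands, starts 231 bases before the RefSeq start of Id2, and 9.54% of the 27025 promoters hold it. In GENCODE M21 this window lies inside the Id2 gene, with 161 of its 250 bases in an exon of a longer transcript that held at most 1.2% of the TPM of Id2 in any library, and the stretch shown lies outside exons. The RefSeq window of Id3 holds 2 SMAD boxes and no such box, but all 250 of its bases lie in an exon of the main transcript, which held 84.2% to 100% of the TPM of Id3, so in that annotation it is transcribed sequence.

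More members were called over time than between the genotypes. From 0 h to 24 h 15% of all genes and 8 members were called in WT cells, and 18.6% of all genes and 9 members in KO cells. From 24 h to 48 h it was 8.14% of all genes and 7 members in WT cells, and 9.95% of all genes and 8 members in KO cells. Nodal was the member that passed in none of these 4 steps, with log2 fold changes of 0.08 and -0.18 in WT and 0.29 and -0.34 in KO cells (adjusted p = 0.81, 0.56, 0.18 and 0.15).

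**Figure D4:**
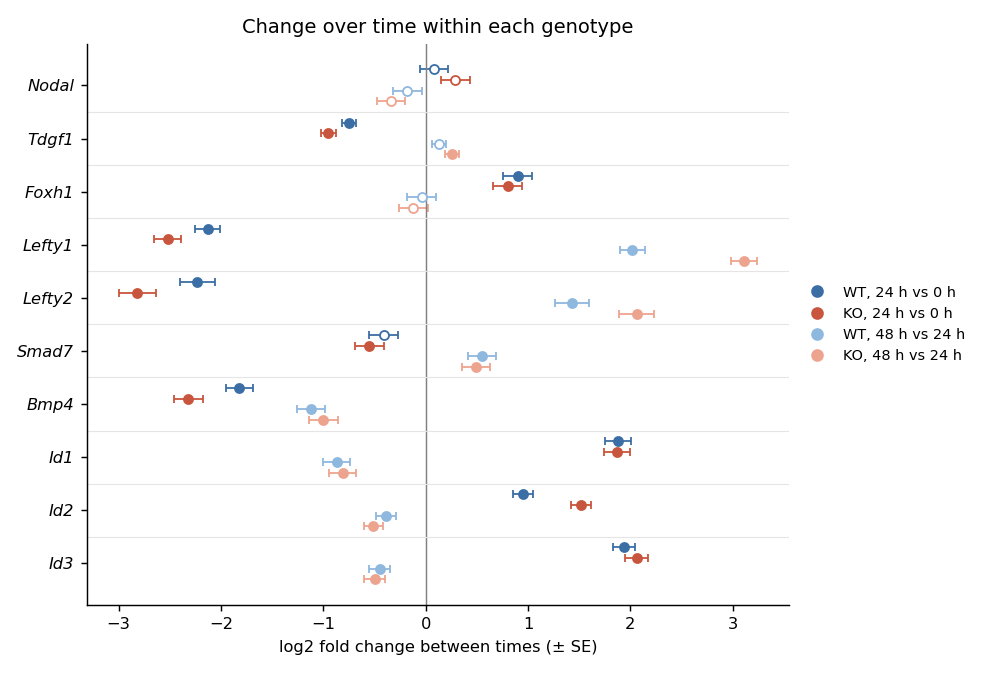
Log2 fold change between successive times (horizontal axis) for each of the 10 genes (vertical axis), in WT (blue) and KO (red) cells, dark for 24 h against 0 h and light for 48 h against 24 h, with bars of 1 SE. Filled points passed an adjusted p of 0.05. Lefty1 goes from -2.13 to 2.02 in WT and from -2.52 to 3.11 in KO cells, while Bmp4 is below 0 in both steps.

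The Lefty genes fell when spheroids formed and rose again afterwards. From 0 h to 24 h Lefty1 fell, with log2 fold changes of -2.13 ± 0.12 in WT and -2.52 ± 0.13 in KO cells (adjusted p = 2.9e-10 and 4.3e-11), to 0.229 and 0.175 of the earlier level. From 24 h to 48 h it rose by 2.02 and 3.11 (adjusted p = 4.5e-09 and 9.9e-12), which is 4.06-fold in WT and 8.61-fold in KO cells. Lefty2 fell in the first step (-2.23 in WT and -2.82 in KO cells) and rose by 1.43 and 2.06 in the second (adjusted p = 4.3e-06, 6.3e-07, 0.0003 and 1.8e-05). In the edgeR fit no other member fell further from 0 h to 24 h, a step in which Nodal did not pass the test. In KO cells this order depended on the setting. Over the alternative settings and left-out libraries the fall ran from -2.64 to -2.38 for Lefty1 and from -3.19 to -2.13 for Lefty2. For Bmp4 it ran from -2.65 to -2.1, so these ranges overlapped. The later rise of Lefty2 was not called with length offsets (adjusted p = 0.081 in WT and 0.076 in KO cells), and with limma on log2(TPM + 1) it was called in KO cells (adjusted p = 0.048) and not in WT cells (adjusted p = 0.07).

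Smad7, the other negative regulator, moved in the same order with smaller steps. In KO cells it fell by 0.55 ± 0.14 and then rose by 0.49 ± 0.14 (adjusted p = 0.01 and 0.036), and in WT cells the first step was -0.41 (adjusted p = 0.059) and the second a rise of 0.55 (adjusted p = 0.02). The second step in KO cells lost its call when any 1 of 7 libraries was left out. These were KO replicate 2 of 48 h, where it was 0.30 (adjusted p = 0.40), WT replicate 1 or 2 of 24 h (adjusted p = 0.053 for both), KO replicates 1 and 2 of 0 h (0.055 and 0.054) and KO replicates 1 and 2 of 24 h (0.056 and 0.063). The rise in WT cells was lost without WT replicates 1 and 2 of 24 h (adjusted p = 0.11 and 0.14) or WT replicate 1 of 48 h (0.22), and the fall in KO cells without KO replicate 2 of 0 h (0.069).

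Tdgf1 and Foxh1 changed in opposite directions at 24 h. Tdgf1 fell by 0.75 ± 0.07 in WT and by 0.95 ± 0.07 in KO cells (adjusted p = 1.6e-07 and 4.8e-09), and its later values were 0.13 in WT (adjusted p = 0.33) and a rise of 0.26 in KO cells (adjusted p = 0.018). This small rise was lost without KO replicate 2 of 24 h (0.19, adjusted p = 0.10) or KO replicate 1 of 48 h (0.17, adjusted p = 0.34). Foxh1 rose by 0.90 ± 0.14 in WT and 0.80 ± 0.14 in KO cells (adjusted p = 0.00024 and 0.00054), and its values from 24 h to 48 h were -0.04 and -0.12 (adjusted p = 0.94 and 0.68). In KO cells the rise of Foxh1 was 0.52 (adjusted p = 0.005) without KO replicate 1 of 24 h.

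Bmp4 went apart from the ID genes in the first step and fell with them in the second. Bmp4 fell in both steps, which in log2 units were -1.82 and -1.12 for WT and -2.32 and -1.0 for KO cells (adjusted p = 8.9e-09, 1.9e-05, 2.7e-10 and 5e-05). The later fall was not called with length offsets, where it was -0.54 in WT and -0.19 in KO cells (adjusted p = 0.38 and 0.75). Transcripts of Bmp4 that are not protein-coding held 0.0% to 62.1% of its TPM, and over its protein-coding transcripts alone the mean TPM at 0 h, 24 h and 48 h was 87.9, 27.0 and 12.1 for WT and 121, 25.8 and 11.2 for KO cells.

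The 3 ID genes rose together at 24 h and fell together afterwards. From 0 h to 24 h Id1 rose by 1.88 in WT and 1.87 in KO cells, Id3 by 1.94 and 2.06, and Id2 by 0.95 and 1.52. The highest adjusted p of these 6 changes was that of Id2 in WT cells, 7.7e-07. From 24 h to 48 h all 3 fell, Id1 by 0.87 and 0.81, Id2 by 0.39 and 0.51 and Id3 by 0.45 and 0.50, with adjusted p from 0.00066 to 0.012 in WT and from 0.0009 to 0.0031 in KO cells. They ended above their ESC level: the mean TPM of Id3 was 44.1, 181 and 133 at the 3 times in WT cells, and that of Id1 was 115, 442 and 237. The late fall of Id2 in WT cells was lost without WT replicate 1 or 2 of 24 h (adjusted p = 0.073 and 0.068) or of 48 h (0.067 and 0.094). That of Id3 was lost in WT cells without WT replicates 1 and 2 of 24 h (0.057 and 0.053) or WT replicate 1 of 48 h (0.082), and in KO cells without KO replicate 1 of 48 h (-0.33, adjusted p = 0.11).

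Whether the genotypes differed in these changes over time was tested by interaction terms. By edgeR, 0 members were called for 24 h against 0 h (0.0115% of all genes) and 0 for 48 h against 0 h (0.0402% of all genes), and 4 and 2 members had an unadjusted p below 0.05. DESeq2 called 0 members for the first and 1, Lefty1, for the second. For Lefty1 the KO difference was less negative at 48 h than at 0 h by 0.69 ± 0.16 (adjusted p = 0.19 in edgeR and 0.026 in DESeq2), and it passed in edgeR without KO replicate 1 or 2 of 24 h (adjusted p = 0.043 and 0.041). For Id2 the KO difference was higher at 24 h than at 0 h by 0.58 ± 0.14 (adjusted p = 0.51 in edgeR and 0.054 in DESeq2). It passed without KO replicate 2 of 24 h, which leaves the library that stood apart as the lone KO library of that time. In that fit the calls for this interaction rose over all genes, so the gain was not particular to Id2.

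In level by mean TPM, Tdgf1 was the most abundant member at 0 h and 48 h and Id1 at 24 h, in both genotypes. Mean TPM of Tdgf1 was 628, 396 and 418 in WT and 673, 348 and 401 in KO cells, and that of Id1 in KO cells was 154, 578 and 312. On this scale Smad7 was lowest at 0 h and 48 h in both genotypes, with 18.3 to 22.6 TPM in those 4 groups. At 48 h this rested on transcripts of Bmp4 that are not protein-coding. Over protein-coding transcripts alone, Bmp4 had 12.1 TPM in WT and 11.2 in KO cells at 48 h, below Smad7 with 22.6 and 19.4. Nodal had 43.7, 47.9 and 41.4 TPM in WT and 26.4, 33.2 and 24.8 in KO cells. In CPM, the order of its groups was WT at 24 h, 0 h and 48 h, then KO at 24 h, 0 h and 48 h. Libraries of neighbouring groups overlapped within WT cells and between KO at 0 h and 48 h, and did not between WT at 48 h and KO at 24 h.

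In the wider pathways 1 gene was called between the genotypes. Of 47 other genes of both pathways, from lists of ligands, convertases, receptors, transducers, antagonists and targets, 44 were tested and Acvr1c, Cer1 and Gdf6 were too low. At single times edgeR called 0 of the 44 between the genotypes, with 8, 3 and 4 at an unadjusted p below 0.05 for 0 h, 24 h and 48 h, where it called 1.26%, 1.46% and 0.671% of all genes. DESeq2 called 0, 2 and 1 of them, Bmp8b (lower) and Bmpr1a (higher) at 24 h and Bmpr1a at 48 h, and limma called 0 at each time. Over all times 1 of the 44 was called, where 5.03% of all genes were, and 11 had an unadjusted p below 0.05. The gene called was Bmpr1a, a type I receptor for BMP4, which was higher in KO cells by 0.30 ± 0.05 (adjusted p = 0.00091). Its counts, not scaled for depth, were 2541 and 2268 in WT and 2701 and 2784 in KO cells at 0 h. They were 3455 and 3631 against 4337 and 4288 at 24 h, and 2955 and 3220 against 4454 and 3578 at 48 h. These counts were higher in both KO libraries each time. In mean TPM the genotypes were closer at 48 h, with 37.8 (SD 2.63) in WT and 39.9 (SD 6.17) in KO cells. The call was lost with limma on log2(TPM + 1) (0.22, adjusted p = 0.26) and with length offsets (0.22, adjusted p = 0.20). Among the 10 tested Nodal targets on the lists 2 were called lower over all times and 0 higher, and these were Lefty1 and Lefty2. Skil, a SMAD corepressor, had -0.13 ± 0.05 (adjusted p = 0.17), and follistatin (Fst), an activin antagonist, had 0.55 ± 0.18 (adjusted p = 0.092), which passed without KO replicate 2 of 24 h (0.66, adjusted p = 0.0068).

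Over time these genes moved in several directions. Of the 44, 7 rose and 3 fell in WT cells from 0 h to 24 h, where 15% of all genes were called, and 7 rose and 6 fell in KO cells, where 18.6% were. From 24 h to 48 h 4 rose and 4 fell in WT cells, beside 8.14% of all genes, and 4 rose and 3 fell in KO cells, beside 9.95%. Of 10 tested Nodal targets, including Lefty1, Lefty2 and Smad7, 1 rose and 3 fell in WT cells from 0 h to 24 h. In KO cells 2 rose and 4 fell in that step. From 24 h to 48 h 6 of the 10 rose and 0 fell in WT cells, with a median log2 fold change of 0.81. In KO cells 5 rose and 0 fell, with a median of 1.24. Among these targets, Skil rose in both steps, by 0.98 and 0.77 in WT and 1.25 and 0.67 in KO cells. Pmepa1, which restrains SMAD signalling, fell by 1.54 in WT and 1.59 in KO cells at 24 h.

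Other ligands and processing enzymes differed by time as well. Gdf1, a partner of Nodal, rose at 24 h by 0.96 in WT and 1.35 in KO cells (adjusted p = 0.0093 and 0.00049). Furin, a convertase that cleaves the Nodal precursor, rose by 1.18 and 1.31 (adjusted p = 2.8e-05 and 6.2e-06). The type I receptor Acvr1b fell by 0.78 and 0.89 (adjusted p = 4.8e-05 and 7.5e-06). From 24 h to 48 h Inhbb, a subunit of activin B, fell by 1.75 and 2.29 (adjusted p = 2.6e-05 and 1e-06), the related ligand Gdf3 by 0.58 and 0.49 (adjusted p = 0.00019 and 0.00073) and the second convertase, Pcsk6, by 0.59 in both (adjusted p = 0.01 and 0.0082). Fst rose by 1.91 and 1.32 (adjusted p = 0.00066 and 0.0095). Leaving out a library ended the calls of Gdf1 in WT cells (adjusted p = 0.085 without replicate 1 of 0 h and 0.10 without replicate 2 of 24 h), of Fst in KO cells (0.084 without replicate 2 of 48 h) and of Pcsk6 in WT cells (0.10 without replicate 2 of 24 h and 0.14 without replicate 1 of 48 h) and KO cells (-0.36, adjusted p = 0.17 without replicate 1 of 48 h).

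Other BMP targets did not all follow the ID genes. At 24 h Msx1, a homeobox gene, rose by 3.43 in WT and 4.24 in KO cells (adjusted p = 0.02 and 0.0058), from 13 and 0 counts to 102 and 60 and from 6 and 2 to 123 and 62. Its relative Msx2 rose in WT cells by 2.53 (adjusted p = 0.004), from 32 and 25 counts to 191 and 188. In KO cells Msx2 had 97 and 95 counts at 0 h and 82 and 333 at 24 h, a change that was not called. Id4 fell by 0.77 in WT and 0.70 in KO cells (adjusted p = 0.025 and 0.036). Bmp7 fell in KO cells at 24 h by 3.39 ± 1.07 (adjusted p = 0.043), from 194 and 118 counts to 0 and 35, the 0 being in the library that stood apart. Without that library the fall of Bmp7 was -2.40 (adjusted p = 0.01), and without the other KO library of 24 h the 1 that remained had 0 counts, so no size is given (adjusted p = 7.6e-07). Leaving out any 1 of the other 10 libraries ended the call, and the adjusted p was 0.053 to 0.17. Msx1 lost its call in WT cells without replicate 2 of 0 h (2.46, adjusted p = 0.11) or replicate 1 of 24 h (2.96, adjusted p = 0.14) and in KO cells without replicate 2 of 0 h (3.68, adjusted p = 0.092). Id4 lost it in WT cells without replicate 2 of 0 h (-0.44, adjusted p = 0.37) or either library of 24 h (adjusted p = 0.15 and 0.13), and in KO cells without either library of 0 h (0.27 and 0.088) or replicate 1 of 24 h (-0.49, adjusted p = 0.24).

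The pluripotent cell markers differed little between the genotypes: 1 of 7 was called over all times, Zfp42, a gene of naive pluripotent cells, higher in KO cells by 0.23 ± 0.04 (adjusted p = 0.0024). Their summed TPM was 5460 to 5860 in WT and 5720 to 6080 in KO cells at 0 h, 5570 to 5710 and 5790 to 5950 at 24 h, and 3790 to 3890 and 3820 to 4320 at 48 h. Of the 4 fibroblast markers 1, Thy1, was called lower in KO cells, by 0.79 ± 0.15 on the log2 scale (adjusted p = 0.0023). The other 3 were not called, and the median of the 4 was 0.01. The Thy1 call was lost with limma on log2(TPM + 1) and with length offsets. The sum of the 4 markers ran from 14.7 to 24.8 TPM in WT and 6.88 to 22.4 in KO libraries. Most of it was Thy1, with group means of 9.71 to 19.3 TPM, against at most 1.04 for Col1a1, Col1a2 or Dcn. The part of these markers in the Nodal, Lefty and ID differences was not tested.

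Over the 12 libraries, the genes whose log2 CPM followed that of Nodal most closely, among the 12277 tested genes whose log2 CPM averaged 1 or more, were Smpd2 (Pearson r = 0.94), Plxdc1 (0.918), Rtn4ip1 (0.915), Dnajb12 (0.915) and Mfsd4b4 (0.909). Smpd2, Rtn4ip1, Dnajb12 and Mfsd4b4 lie on chromosome 10 like Nodal, with starts between 39890018 and 59879556, inside the block of lower genes. For Id1 they were Cdkl2 (0.977), Dynll2 (0.977), Akr1b3 (0.976), Mprip (0.975) and Tmem79 (0.974), which lie on chromosomes 5, 11, 6, 11 and 3. These libraries share their 6 groups, so the values describe the pattern over groups and carry no test.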

How the data were processed

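The members and the gene lists were chosen with earlier results of these data known. RNA-sequencing libraries from 12 samples were prepared with a stranded mRNA kit, and per the labels the authors used Trimmomatic 0.33 for trimming and kallisto 0.43.1 for quantification. Each deposited table lists 115270 transcripts with an estimated count, which is not scaled and need not be whole, and a TPM value, which the authors' tool scales for effective length and depth. The effective length, a further deposited column of another unit (bases), was used for the length offsets. No value of an authors' comparison was used.

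Transcripts were matched to GENCODE M21 (GRCm38): 113580 (98.5%) matched, and the rest, with 0.659% to 0.709% of the counts, were left out. Estimated counts and TPM were summed per gene and count sums rounded. kallisto divides reads that fit several transcripts, so values of near-identical genes are uncertain. With 3 counts as the floor, the depth of 29.0 to 38.5 M allowed a share of 0.0779 to 0.1035 CPM, which covers counting error only.

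The main test was that of edgeR 4.0.16 in R 4.3.3, with TMM, filterByExpr and robust quasi-likelihood dispersions, with 1 mean per group over 12 libraries and 6 residual degrees of freedom. P-values were two-sided and adjusted by the Benjamini-Hochberg method over 17424 genes, with a threshold of 0.05 for a call. SE was the log2 fold change divided by the square root of F. The fit was also run on simulated counts with less spread than these data, so that run does not show how well it detects changes here. The genes named are all members, pathway genes called in a comparison (up to 6 per list and comparison), the 3 nearest tested genes on either side of Nodal, and the 5 genes most correlated with Nodal and with Id1. A result for 1 gene that this rule selects is not reported here. Skil and Fst between the genotypes, named with values that did not pass, were picked with their values in view. The BMP targets that are not members were all given between the genotypes over all times. The alternatives tried were DESeq2 1.42.0, edgeR with the size factors of DESeq2, all genes kept whatever their counts, a minimum of 10 counts per library, limma 3.58.1 on log2(TPM + 1), length offsets, a replicate block, a fit of only the groups compared, and leaving out each library.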

Additional observations from a re-analysis of the deposited data

How the results depend on the processing

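Counts of members called moved by over 1.5 times as follows. Between the genotypes at 0 h (2 members), the count was 5 without the filter on low counts, 4 with only the groups compared, 1 with length offsets and 0 with limma on log2(TPM + 1). At 24 h (3 members) it was 5, 0, 1 and 1 in the same order. At 48 h (1 member) it was 3, 2, 0 and 0, and 2 with DESeq2 and with the replicate block. Over all times (5 members) it was 2 with limma and 3 with length offsets. From 24 h to 48 h it was 2 under each of these in WT cells (7 members), and in KO cells (8 members) 5 with limma, 4 with length offsets and 5 with only the groups compared. For the interactions (0 members each) it was 2 at 24 h and 1 at 48 h without the filter, and 1 at 48 h with DESeq2. Leaving out 1 library gave 1 to 4 members at 0 h, 1 to 4 at 24 h, 0 to 2 at 48 h, 4 to 6 over all times, 8 to 9 and 4 to 7 for the 2 steps in WT cells, 8 to 9 and 6 to 8 in KO cells, and 0 to 2 and 0 to 1 for the interactions. A lone library was then assumed to vary like the other groups.

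Over all genes, limma and length offsets called 20 and 62 genes at 0 h against 220, 20 and 64 at 24 h against 255, 23 and 19 at 48 h against 117, and 189 and 294 over all times against 877. Over time they called 1362 and 1317 against 2615 and 475 and 565 against 1418 in WT cells, and 1617 and 1772 against 3236 and 785 and 825 against 1733 in KO cells. DESeq2 called 375, 449 and 232 at the 3 times, and no filter 386, 615 and 303. Fitting only the groups compared called 13 genes at 24 h, and leaving out KO replicate 2 of 24 h called 2327.

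Libraries that share a replicate number did not deviate together, with correlations of 0.003 at 0 h, 0.051 at 24 h and -0.009 at 48 h, so the numbers were not taken as pairs. With the replicate block the counts of members were 3, 3, 2 and 5 between the genotypes, where Lefty2 gained calls at 0 h (adjusted p = 0.011) and 48 h (adjusted p = 0.027), and no member lost a call.

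Of 43 called values of members, 0 reversed in 855 refits and 75 refits lost the call; 23 of the 43 kept it in all. Besides those named with their genes, the losses were with limma on log2(TPM + 1), length offsets or only the groups compared. Of 49 values of other genes (of the pathways, beside Nodal, or markers), 0 reversed in 966 refits and 21 kept their side of the threshold in all. Reversals were limited to differences that were not called. Tdgf1 at 48 h was -0.10 to 0.05 with libraries left out. Smad7 at 0 h was 0.27 with limma, 0.24 with length offsets and -0.29 to 0.06 with libraries left out. Bmp4 at 48 h was -0.01 with DESeq2, with its size factors and with at least 10 counts, -0.18 with limma, -0.16 with length offsets and -0.07 to 0.09 with libraries left out. Bmp4 at 24 h was -0.38 to 0.12 with libraries left out and over all times -0.12 with limma and -0.13 with length offsets. Id2 at 0 h was -0.27 to 0.04 with libraries left out. Foxh1 was -0.02 at 24 h and 0.02 at 48 h with length offsets, and with libraries left out -0.25 to 0.27 at 24 h, -0.10 to 0.01 at 48 h and -0.05 to 0.12 over all times. The causes of these changes were not tested. A difference that did not pass, as for Tdgf1 and Foxh1 between the genotypes, does not show that the genotypes were alike, and no limit of detection was tested.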
